A study of Mus musculus with 2 samples.

Results

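The genes described here encode the proteins that join epithelial cells to each other: cadherins and catenins of the adherens junction, desmosome proteins, claudins and other tight junction proteins, connexins of gap junctions, the adhesion molecule Epcam, and the keratins that anchor to desmosomes. They were chosen by symbol, from the probe's accession or description, and not by any measured value. The choice gave 86 genes, each with 1 probe, of 20573 genes and unnamed transcripts on the array. By family there were 13 cadherin, 3 catenin, 7 desmosome, 18 tight junction, 16 gap junction and 28 keratin genes, and Epcam. No probe was matched to Dsp, Jup, Pkp4 or F11r, which the choice also named.

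The series compared granulosa cells, which line the ovarian follicle and feed the oocyte, between mice lacking estrogen receptor beta (ERβ, the product of Esr2) and heterozygous mice. Female C57/Bl6 mice of 23 to 25 days received PMSG (pregnant mare serum gonadotropin, a stand-in for follicle-stimulating hormone) for 48 h. Cells were pooled by genotype into 1 Esr2+/- sample (het) and 1 Esr2-/- sample (null), so the het pool also carries a disrupted Esr2 allele, and the number of animals in a pool is not given in the sources used here. The pools were compared on 2 dye-reversed Agilent two-colour arrays, with the null pool in Cy5 on array 1 and in Cy3 on array 2. Both arrays repeat the same pair of pools, 1 for each genotype: no test across animals was possible, no p-value is given, and each SD (n = 2 arrays) covers hybridisation and dye alone.

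Adherens junctions link cells through cadherins, whose cytoplasmic ends bind catenins and through them actin. Desmosomes do the same work for keratin filaments through desmogleins, desmocollins, plakophilins and desmoplakin, and tight junctions seal the space between cells with claudins and occludin. Granulosa cells form an epithelium that holds together through N-cadherin and E-cadherin, exchanges small molecules with its neighbours and with the oocyte through connexin channels, and contains keratin filaments of the simple epithelial type.

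The promoter sequences show the DNA just upstream of the 3 genes that had the mean ratios farthest from 0 among those with an entry in the promoter table. Each is the 250 bases before the gene's start, 5′ to 3′ on the strand given, from RefSeq (GRCm38.p6). Capitals mark letters that match, on either strand, GGTCA (the estrogen response half-site), GGGCGG (a GC box), CAGGTG (an E-box bound by Snail and ZEB repressors), TGANTCA (AP-1 site), TGACG (CRE half-site) or TATAAA (the usual core promoter TATA box).
Krt20, chr11:99438154-99438403, minus strand: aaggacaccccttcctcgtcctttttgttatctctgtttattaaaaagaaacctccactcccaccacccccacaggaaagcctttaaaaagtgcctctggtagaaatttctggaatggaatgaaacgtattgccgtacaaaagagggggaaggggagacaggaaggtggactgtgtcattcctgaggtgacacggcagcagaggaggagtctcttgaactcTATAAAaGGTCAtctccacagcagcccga
Gja1, chr10:56377050-56377299, plus strand: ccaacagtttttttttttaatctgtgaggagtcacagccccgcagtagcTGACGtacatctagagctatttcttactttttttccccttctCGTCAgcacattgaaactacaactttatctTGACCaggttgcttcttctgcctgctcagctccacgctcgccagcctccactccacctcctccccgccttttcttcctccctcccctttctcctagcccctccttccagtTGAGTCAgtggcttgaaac
Epcam, chr17:87635729-87635978, plus strand: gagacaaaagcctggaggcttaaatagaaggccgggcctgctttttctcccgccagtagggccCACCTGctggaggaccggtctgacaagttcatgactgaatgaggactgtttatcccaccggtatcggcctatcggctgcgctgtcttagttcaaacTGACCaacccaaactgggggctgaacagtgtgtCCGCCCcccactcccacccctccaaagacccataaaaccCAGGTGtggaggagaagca
Krt20 had a half-site 22 bases before its start beside a TATA box at 29 bases. Gja1 had a half-site at 129 bases, an AP-1 site at 19 bases and CRE half-sites at 201 and 159 bases. Epcam had a half-site at 91 bases, a GC box at 58 bases and E-boxes at 187 and 19 bases. The half-site is short and common: 35.2% of 32851 RefSeq promoters of this length held it, against 50% of the 58 promoter entries of 45 genes of the set. The E-box was in 17.2% of all promoters and 25.9% of those of the set, the TATA box in 12.4% and 25.9%, the GC box in 32.7% and 32.8%, the AP-1 site in 6.75% and 8.62%, and the CRE half-site in 17.8% and 20.7%. The full palindromic estrogen response element (GGTCA, any 3 bases, then TGACC) was in 0.0639% of all promoters and 0% of those of the set. These matches describe the letters in these windows and are not evidence of binding.

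Each array held 21318 non-control spots, of which 87.2% to 95.1% were well above background in each pool. Levels are log2 signals after background correction and normalization, and ratios are log2 of null over het. The lower limit of the scale, 5.64, is that set by background correction, before normalization shifts the channels. Genes not above background can lie higher, as Krt80 did at 5.85 to 5.90. A gene passed the background filter when it was well above background in at least 1 pool on both arrays, as 18527 genes and transcripts did. The Esr2 probe had ratios of -0.50 and -0.46 on the arrays, but where it lies in the disrupted gene is unknown here, so it does not check the labels. All 13 measured granulosa markers passed the filter, as did 18 of 19 measured oocyte markers, beside 18527 of 20573 over the whole array. Since most of the array passed, the filter does not tell which cells were present. All 18 oocyte markers had positive ratios on both arrays, beside 22.7% of all genes. In bulk RNA of this kind, fewer cells of a type and less RNA per cell cannot be told apart.

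Of the 86 genes, 79 passed the filter. The 7 that did not were the cadherin gene Cdh8, the desmocollin gene Dsc1, the connexin gene Gjd2, the claudin gene Cldn16 and the keratin genes Krt1, Krt23 and Krt80, and no fold is given for them. No probe of the set was saturated. Where groups of levels are compared below, each group is the 2 readings of 1 pool, so their separation does not speak of animals. Groups also did not overlap at ratios near 0, as for Cldn1 (0.03), and this was not counted over all genes. By the rule used for the whole array (a 2-fold or larger mean, with both arrays past 1.5-fold in that direction) 0 of the 79 genes were higher and 0 were lower in the null pool, where 0.0378% and 0.0918% of all genes were. A smaller rule, 1.2-fold or more in one direction on each array (a log2 ratio of 0.26), was passed by 4 genes that were higher in the null pool, Pkp2, Krt20, Cdh1 and Epcam, and by 1 that was lower, Perp. They made up 5.06% and 1.27% of the 79, beside 1.69% and 1.08% of all genes. The nearest gene inside this rule was Epcam, with a smaller array ratio of 0.34, and the nearest outside were Cdh2 (-0.25) and Cdh13 (-0.24). The rule was also applied to unturned dye ratios, where a genotype difference cancels. It was then passed by 0 genes of the set, and by 0.0864% (red higher) and 0.642% (green higher) of all genes. Genes called above could not pass it, since it needs null over het ratios of opposite sign, so it is no check on them.

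Mean ratios of the set lay within 0.1 of 0 for 57 of the 79 genes and within 0.25 for 68. Over the whole array they did so for 14392 and 17483 of 18527 genes, a larger share in both cases. The median was 0.0058, against -0.0038 over all genes that passed. Ratios were positive on both arrays for 28 genes (35.4%, beside 22.7% of all genes), negative on both for 24 (30.4%, beside 24.3%) and of opposite sign for 27. Across these 79 genes, which share the same 2 pools and arrays, array 1 and array 2 ratios had r = 0.709, and over all genes r = 0.324.

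**Figure D1:**
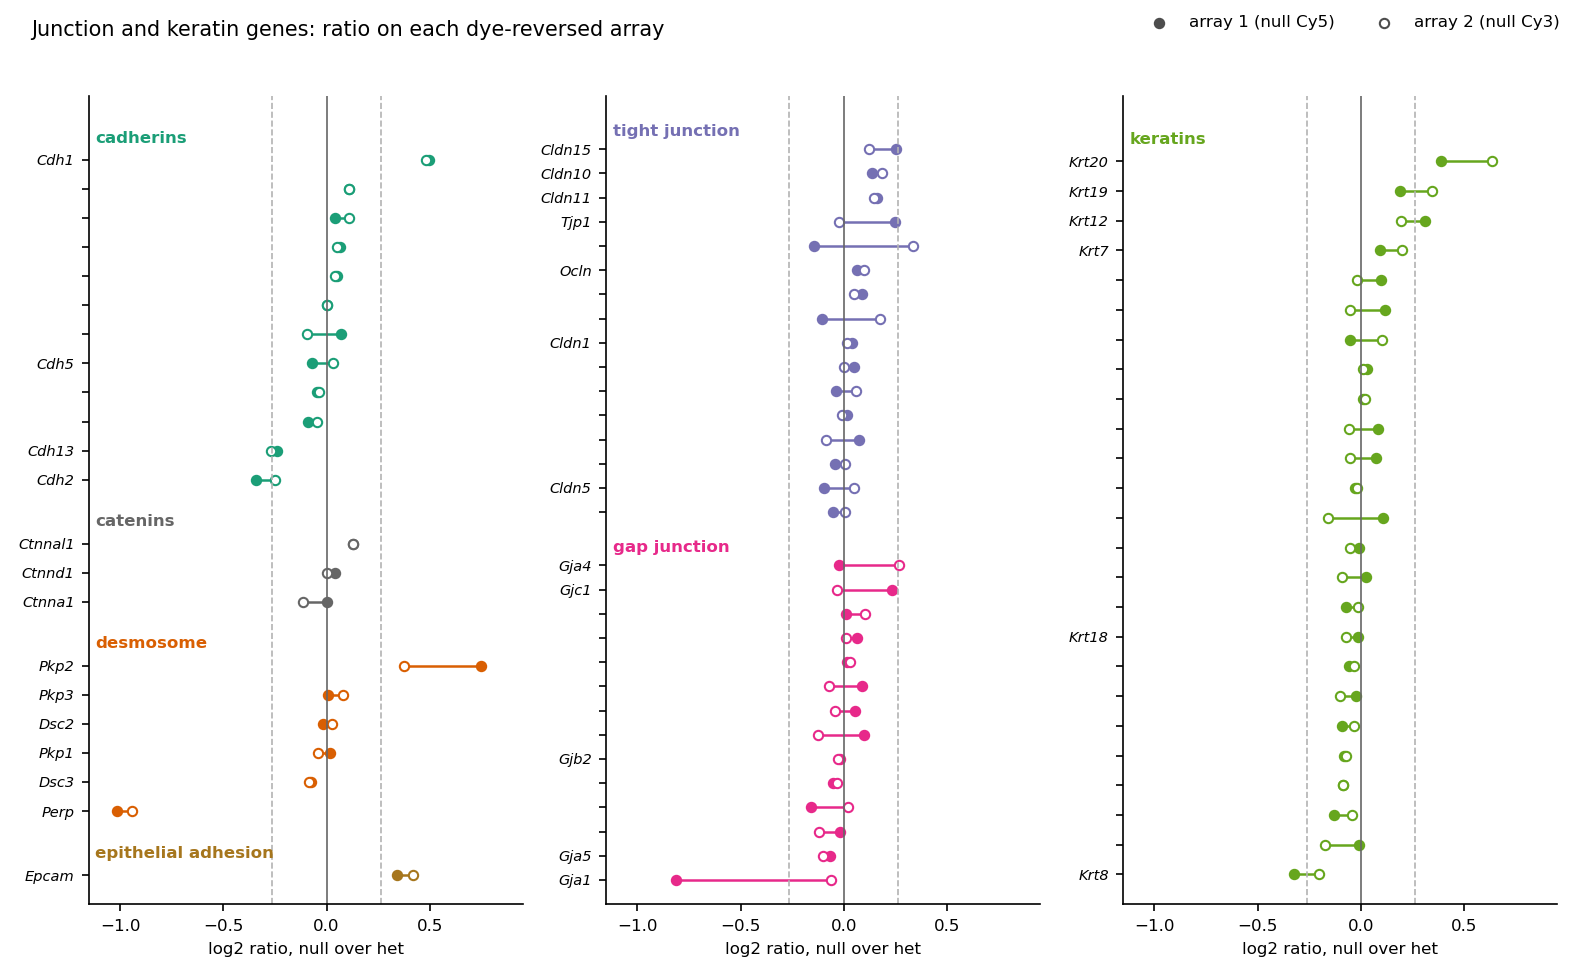
Log2 ratio of null over het (x axis) for 77 genes above background, on array 1 (filled) and array 2 (open). Genes are grouped in families and ordered by mean ratio, and those described in the text, apart from Cldn18, are labelled. Of the 79 genes, 2 are not drawn because they are not reported here. The dashed lines mark 1.2-fold; Perp lies beyond it on the left, and Pkp2, Krt20, Cdh1 and Epcam on the right, on both arrays, while Gja1 does so on array 1 alone.

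The gene with the lowest ratio of the set was Perp (NM_022032), which encodes a membrane protein with 4 membrane-spanning segments that desmosomes need and that p53 induces. Its level was 7.15 and 7.28 in the null pool on arrays 1 and 2, and 8.16 and 8.22 in the het pool. Both null values lay about 1 log2 unit below both het values. The ratios were -1.01 and -0.94, with a mean of -0.98 ± 0.05, or 1.97-fold lower, just short of the 2-fold rule. These ratios include an offset of 50 added to both channels, which draws ratios of dim genes toward 0. Its part in this value was not tested. Only 17 of the 18527 genes had a lower mean. The scanner software's own ratio was -1.41, and by it Perp met the 2-fold rule, as 0.243% of all genes did on the lower side. Among granulosa markers, 4 of 13 were lower by 1.2-fold on each array (Cyp19a1 -1.27 ± 0.20, Inhba -1.16 ± 0.50, Fst -0.87 ± 0.47 and Esr2), 1 was higher (Amhr2, 0.35 ± 0.02), and none was at the lower limit. The other 8 passed the rule in neither direction. The log2 of the summed signal of the 13 markers was 13.75 and 14.004 in the null pool and 14.88 and 14.51 in the het pool. Inhba was the brightest of them, at 12.65 and 12.87 in the null pool and 14.16 and 13.68 in the het pool. The part of the summed signal in the value of Perp was not tested.

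Plakophilin 2, a desmosomal plaque protein that ties cadherins to desmoplakin, lay on the other side. Pkp2 (NM_026163) had levels of 9.21 and 8.53 in the null pool and 8.46 and 8.16 in the het pool. Both null values exceeded both het values, and the arrays gave ratios of different size, 0.75 and 0.37. The mean was 0.56 ± 0.26 (1.47-fold higher), and 84 genes of the array had a higher mean. Under median centring of each array in place of loess, Pkp2 no longer passed the 1.2-fold rule on both arrays: its ratios were 1.12 on array 1 and 0.0031 on array 2, with a mean of 0.56. The other desmosome genes were near 0: the desmocollin gene Dsc3 had -0.08 ± 0.01, and Dsc2, Pkp1 and Pkp3 lay within 0.1 of 0. The median of the 6 desmosome genes was -0.0048.

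Cdh1 (NM_009864), the E-cadherin gene, was higher in the null pool by nearly the same amount on each array. Its level was 7.63 and 7.31 in the null pool, and 7.14 and 6.83 in the het pool. The groups did not overlap, and the ratios were 0.50 and 0.48. The mean was 0.49 ± 0.01 (1.40-fold), and the scanner software's ratio was larger, 0.83. Cdh2 (NM_007664), the N-cadherin gene, had the opposite sign. Its levels were 7.84 and 7.57 in the null pool and 8.18 and 7.81 in the het pool, so the null value of array 1 lay above the het value of array 2, while the null pool was lower within each array. Its ratios were -0.34 and -0.25 (mean -0.29 ± 0.07), which missed the 1.2-fold rule on array 2. By the scanner software's ratio (-0.38) it passed.

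Among the other cadherins, the T-cadherin gene Cdh13, whose product is tied to the membrane by a lipid anchor, had -0.24 and -0.27 (mean -0.26 ± 0.02), just outside the rule. The scanner software gave -0.90. The null pool was well above background on 1 of 2 arrays, so Cdh13 passed the filter through the het pool, where it was higher, and the size of its difference is uncertain. Its levels were 6.24 and 6.08 in the null pool and 6.48 and 6.35 in the het pool, close to the lower limit of the scale. Cdh5, the endothelial VE-cadherin gene, had -0.02 ± 0.07. The endothelial marker list had a median of -0.03 over 12 genes, with 1 higher (Cd34, 0.43 ± 0.23) and 0 lower by the 1.2-fold rule. The cadherin median was -0.0048 over 12 genes, with 6 positive and 4 negative on both arrays.

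The catenins, which link cadherins to actin, were near 0. Ctnna1, the alpha-catenin gene, had levels of 10.64 and 10.58 in the null pool and 10.64 and 10.70 in the het pool. These values overlap, and the ratio was -0.06 ± 0.08. Ctnnd1, whose product keeps cadherins at the cell surface, had 0.02 ± 0.03. Ctnnal1, an alpha-catenin relative, had 0.13 on both arrays and 0.39 by the scanner software. Beta-catenin itself, which belongs to the list of adherens junction partners, had 0.15 ± 0.06. Among the 16 measured partners, Zyx, which encodes the actin-binding zyxin (0.41 ± 0.10), was higher by the 1.2-fold rule, and Ctnna2, the neural alpha-catenin gene (-0.35 ± 0.06), was lower. The list's median was -0.03.

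**Figure D2:**
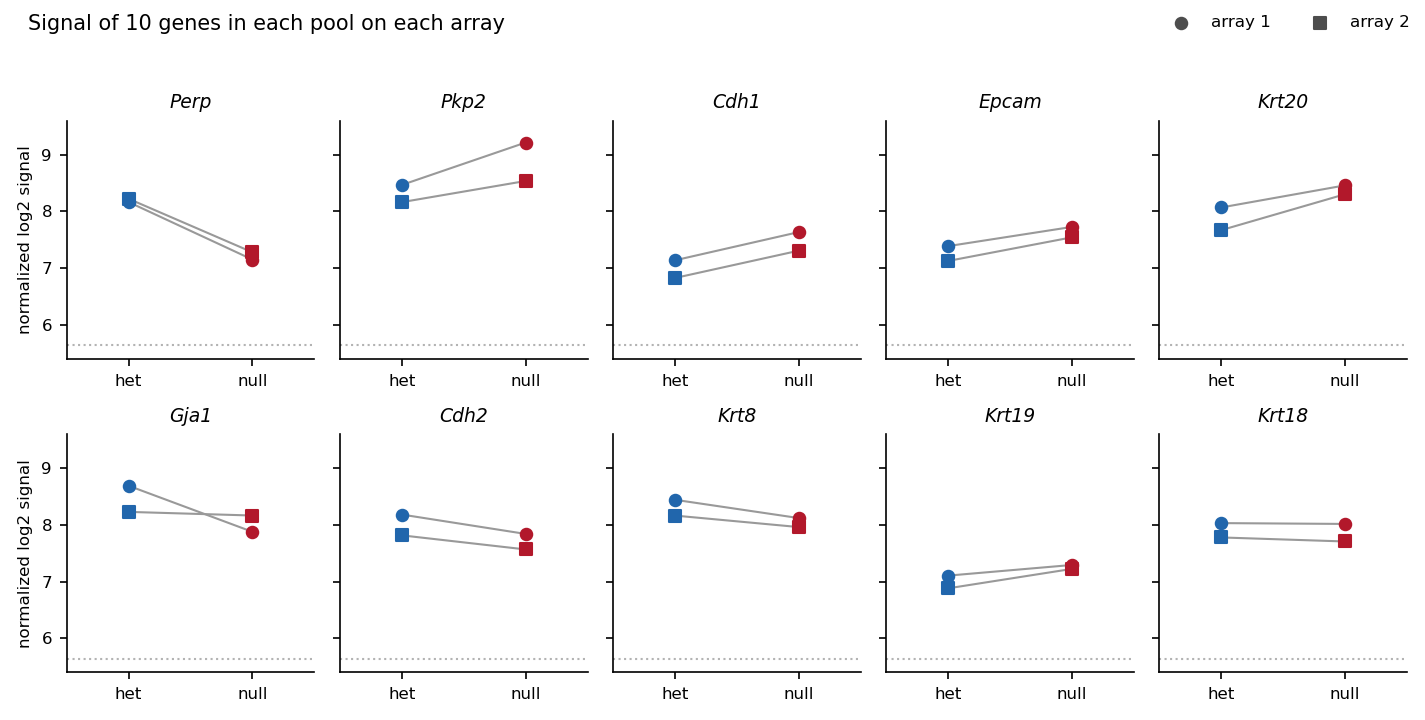
Normalized log2 signal (y axis) of 10 genes in the het (blue) and null (red) pool, with a circle for array 1, a square for array 2 and a line joining the pools of an array. The dotted line is the lower limit of 5.64; the lines of Perp fall and those of Pkp2, Cdh1, Epcam and Krt20 rise on both arrays, while those of Gja1 differ in slope.

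Epcam (NM_008532) encodes an adhesion molecule of simple epithelia that is also used as an epithelial marker. Its levels were 7.73 and 7.54 in the null pool and 7.39 and 7.13 in the het pool. The groups did not overlap, and the ratios were 0.34 and 0.42 (mean 0.38 ± 0.06), with 0.56 by the scanner software. Cdh1 and Epcam are expressed in oocytes and surface epithelium as well as in granulosa cells, so markers of those cells are given beside them. Of 18 oocyte markers that passed the filter, 13 were higher and 0 lower by the 1.2-fold rule, with a median of 0.50 and the growth factor gene Gdf9 farthest from 0 (0.81 ± 0.30). The log2 of their summed signal was 14.55 and 14.36 in the null pool and 13.81 and 13.82 in the het pool, and Figla was the 1 marker that missed the filter. Of 16 surface epithelium markers listed, 8 were measured, and all of these passed the filter. By the same rule 0 were higher and 0 lower, with a median of 0.12, and 4 were positive and 0 negative on both arrays. Their summed levels were 12.27 and 12.15 in the null pool against 11.95 and 12.09 in the het pool. The brightest of them, Aldh1a1, had 11.73 and 11.60 in the null pool and 11.28 and 11.52 in the het pool. The part of either cell type in the ratios of Cdh1, Epcam, Krt19 and Krt20 was not tested.

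Tight junction genes had small ratios, none of which passed the 1.2-fold rule in either direction. The family had the highest median of those with more than 3 genes, 0.0342 over 17 genes, with 8 positive on both arrays and 0 negative on both. Cldn15, a claudin that forms cation pores, had 0.26 and 0.12 (mean 0.19 ± 0.09), from levels of 8.02 and 7.94 in the null pool and 7.76 and 7.81 in the het pool. Both null values of Cldn15 exceeded both het values. Cldn10, another pore-forming claudin, had 0.16 ± 0.04, and 0.45 by the scanner software, which placed it past the 1.2-fold rule. Cldn11, the claudin of Sertoli cell and myelin tight junctions, had 0.16 ± 0.01. Cldn1 (0.03 ± 0.01), a claudin of the skin barrier, and Cldn5 (-0.02 ± 0.11), the endothelial claudin, were near 0.

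Ocln, the occludin gene, had 0.08 ± 0.03. Its levels were 6.60 and 6.56 in the null pool and 6.54 and 6.46 in the het pool. By the scanner software the ratio was 0.22. Tjp1, which encodes a scaffold of the tight junction plaque, differed between arrays. It had 0.25 on array 1 but -0.02 on array 2, which leaves its direction unsettled. Of 17 tight junction partners that passed the filter, the scaffold gene Magi1 was higher (0.56 ± 0.18) and 0 were lower, with a list median of -0.0077.

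Gap junctions are the channels through which granulosa cells share signals, and Gja1 encodes the main connexin between them. Gja1 (NM_010288) had levels of 7.88 and 8.16 in the null pool and 8.69 and 8.23 in the het pool. Both null values lay below both het values, but the arrays gave ratios of -0.81 and -0.06. The mean was -0.44 ± 0.53, an SD larger than the mean, so the size of the difference was not settled and, after loess, rests on array 1. Gja1 did not pass the 1.2-fold rule on both arrays after loess. It did on array 1 by itself (-0.81), and when arrays were centred on their medians (-0.53 and -0.40, mean -0.46). The widest difference between arrays in the family was that of Gja1.

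Gja4, which encodes the connexin that mouse oocytes contribute to their channels with granulosa cells, had -0.02 and 0.27 (mean 0.12 ± 0.21). Its sign differed between the arrays. Gja5, the endothelial and cardiac connexin gene, had -0.08 ± 0.03. Gjb2, a connexin gene of liver and inner ear, had -0.02 ± 0.00, and 0.02 by the scanner software. Gjc1, a connexin gene of smooth muscle and the cardiac conduction system, had 0.24 and -0.03 (mean 0.10 ± 0.19). None of the 15 connexin genes that passed the filter met the 1.2-fold rule in either direction, the median was -0.0135, and 3 were positive and 6 negative on both arrays. Panx1, which encodes a related channel protein, had 0.0035 ± 0.03.

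Keratin filaments are built from pairs of a type I and a type II keratin, and Krt8 and Krt18 form the pair of simple epithelia. Krt8 (NM_031170), the type II partner, had levels of 8.12 and 7.96 in the null pool and 8.44 and 8.16 in the het pool. The groups did not overlap, but the difference on array 2 was small: the ratios were -0.32 and -0.20 (mean -0.26 ± 0.08), short of the 1.2-fold rule. By the scanner software (-0.35) Krt8 passed it. Krt18 (NM_010664), the type I partner, had levels of 8.02 and 7.71 in the null pool and 8.03 and 7.78 in the het pool. These overlap, and the ratio was -0.04 ± 0.04.

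Krt20 (NM_023256), a type I keratin known from intestinal epithelium and urothelium, was the 1 keratin gene past the 1.2-fold rule. Its levels were 8.46 and 8.30 in the null pool and 8.07 and 7.67 in the het pool. Both null values exceeded both het values, with ratios of 0.39 and 0.63 (mean 0.51 ± 0.17, 1.43-fold). Krt19, a type I keratin of simple and ductal epithelia, had 7.29 and 7.22 in the null pool and 7.10 and 6.88 in the het pool. The groups did not overlap, and the ratios of 0.19 and 0.34 (mean 0.27 ± 0.11) missed the rule on array 1, whereas the scanner software's 0.44 passed. Krt7, the type II keratin of ducts, had 0.15 ± 0.08. Krt12, known from the cornea, had 0.31 and 0.19 (mean 0.25 ± 0.08).

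The other keratins of the array belong mostly to epidermis, hair and other stratified epithelia. Over the 25 keratin genes that passed the filter the median was -0.0246, with 6 positive and 12 negative on both arrays, and 20 within 0.1 of 0. Other intermediate filament and linker genes were also near 0, with a list median of 0.0053 over 10 genes. Of these, Lmnb1, which encodes a nuclear lamin, was lower (-0.50 ± 0.04) and 0 were higher by the 1.2-fold rule. Vim, the mesenchymal filament gene, had 0.26 and -0.20 (mean 0.03 ± 0.33). Another list held regulators of the epithelial state, among them the Snail, ZEB and Twist repressors of Cdh1 and the activators Elf3, Ehf and Klf4. Of the 18 that passed the filter, 0 were higher and 0 lower by the 1.2-fold rule, and the median was 0.02. On both arrays 6 were positive (33.3%, beside 22.7% of all genes) and 2 negative (11.1%, beside 24.3%). The positive ones included Klf4 (0.24 and 0.29), Ehf (0.18 and 0.29) and Elf3 (0.16 and 0.02).

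**Figure D3:**
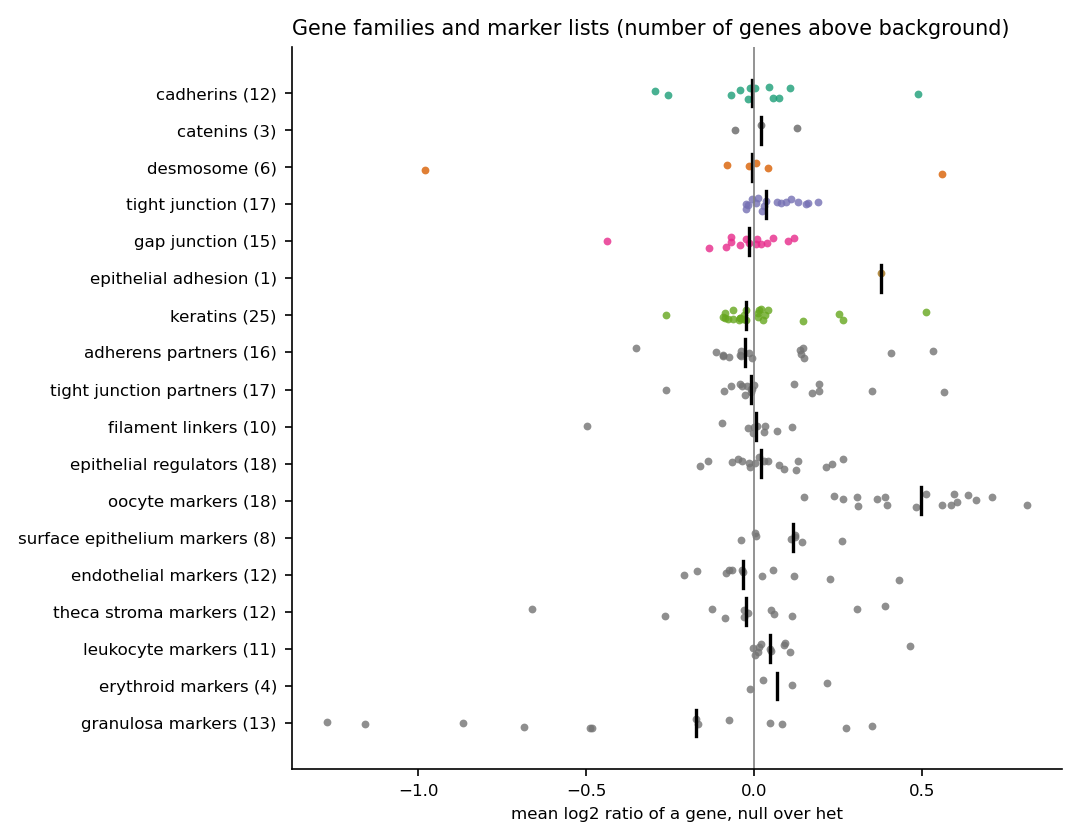
Mean log2 ratio of null over het (x axis) of each gene above background, by junction or keratin family (coloured) and by list of related or marker genes (grey), with the number of genes in brackets and a black bar at the median. The families with more than 1 gene and most lists centre near 0. Epcam, the 1 gene of epithelial adhesion, lies at 0.38, and the oocyte markers centre at 0.50 and the granulosa markers at -0.17.

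The agreement between arrays differed along the set. Perp, Cdh1, Epcam and Krt20 kept the same sign and at least 1.2-fold on both arrays under loess and under median centring, and by the scanner software. After loess, the arrays differed most for Gja1 (-0.81 and -0.06), followed by Cldn18 (-0.14 and 0.33) and Pkp2 (0.75 and 0.37). Others that differed included Gja4 (-0.02 and 0.27), Tjp1 (0.25 and -0.02) and Gjc1 (0.24 and -0.03). The remaining marker lists had medians of -0.02 for theca and stroma (Dcn higher at 0.39 ± 0.06, Hsd3b1 lower at -0.66 ± 0.12), 0.05 for leukocytes (Lyz2 higher at 0.46 ± 0.05) and 0.07 for erythroid genes. The erythroid median hides ratios that reversed between arrays, with the alpha globin gene Hba-a1 at -1.19 and 1.41.

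**Figure D4:**
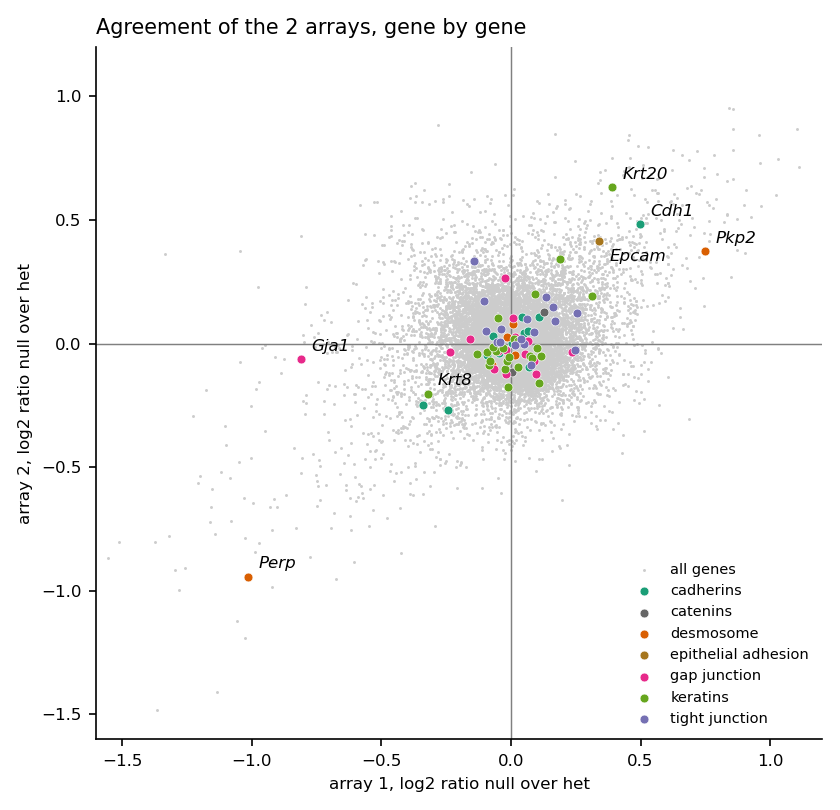
Log2 ratio of null over het on array 1 (x axis) and array 2 (y axis), with the 79 genes of the set in family colours over all 18527 genes in grey; 15 genes lie outside the axes. Perp sits in the lower left, Pkp2, Cdh1, Krt20 and Epcam in the upper right, and Gja1 near 0 on array 2 but at -0.81 on array 1.

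With the scanner software's ratios, 7 genes of the set were higher and 4 lower by the 1.2-fold rule, beside 3.54% and 2.24% of all genes. By the 2-fold rule these ratios gave 0 higher, beside 0.14% of all genes, and 1 lower, Perp. The genes added were Cldn10, Ctnnal1 and Krt19 on the higher side and Cdh13, Cdh2 and Krt8 on the lower side. Of the 28 genes named by rule, 7 changed sign in at least 1 alternative setting. They were Cdh5, Ctnna1, Cldn5, Tjp1, Gja4, Gjb2 and Gjc1, whose direction was not settled.

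**Figure D5:**
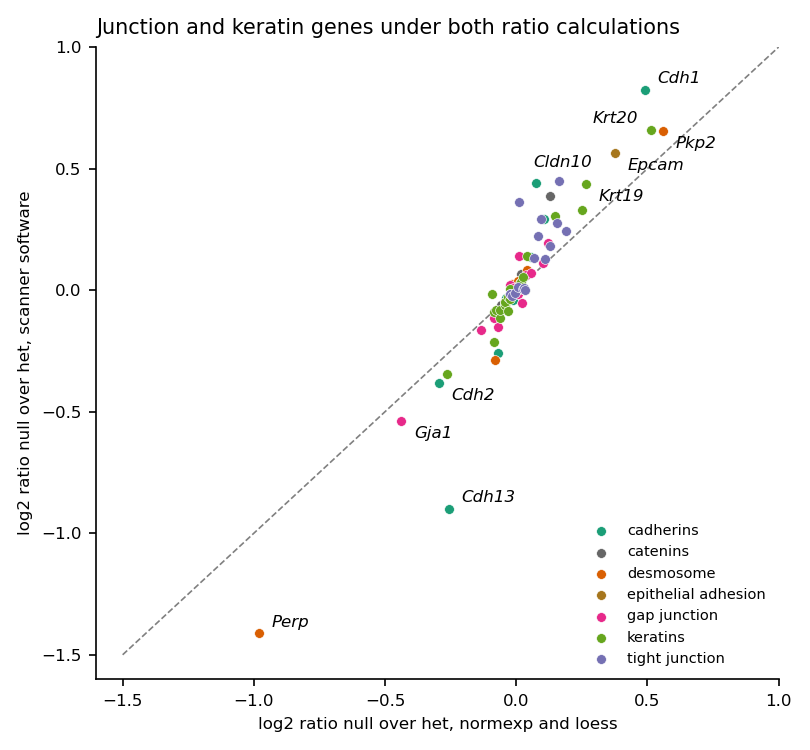
Mean log2 ratio of null over het after normexp and loess (x axis) against the scanner software's ratio (y axis) for the 79 genes, in family colours; the dashed line marks equal values. Perp (-0.98 and -1.41), Cdh13 (-0.26 and -0.90) and Cdh1 (0.49 and 0.83) lie farther from 0 by the scanner software.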

How the data were processed

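RNA of both pools was hybridised to 2 dye-reversed arrays: per the labels' protocols, labelled cRNA was amplified from 500 ng of total RNA, and 750 ng from each pool was mixed and hybridised over 17 h. The deposited scanner files hold the intensity of spot and background per channel and a log10 ratio of red over green, made with Agilent Feature Extraction A.7.5.1, per the file headers. The deposited series table holds log2 values that equal the scanner ratio within 0.001 for 99.8% of spots, red over green, with column medians of 0 and 0.0022.

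From these, mean intensities were corrected with normexp (offset 50) against the local background median and loess-normalized within arrays, with control and outlier spots (58 and 95) at weight 0, in R 4.3.3 with limma 3.58.1. Levels were further scaled between arrays (Aquantile). Array 2 was turned in sign and averaged with array 1 as 1 replicate. Python 3.11.15, numpy 2.4.6, pandas 2.3.3 and matplotlib 3.10.9 were used for the rest. Of 20868 probes, 8947 were named by accession through the RefSeq gene table of GRCm38.p6, 916 by the symbol in the file's description, and 11005 kept their accession; of the 86 genes, 81 were named by accession and 5 by description. On outlier flags 146 probes were left out, and the brightest probe stood for each of 147 genes with several.

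Since each genotype had 1 pool, no model was fitted. The number of arrays limits the precision. Genes named were a list of junction genes, every gene past the 1.2-fold rule, the 2 largest ratios of equal sign on both arrays in each family, and, of other lists, the genes past that rule, at most 4; others were chosen after their values were seen. A few of these genes are not reported here. The members and lists were chosen with earlier results of these data known. Alternatives were the scanner software's and series table ratios, no background subtraction, median centring, other background filters, the mean over probes, other thresholds and each array alone.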

Additional observations from a re-analysis of the deposited data

How the results depend on the processing

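The counts of 0 higher and 0 lower by the 2-fold rule and of 4 higher and 1 lower by the 1.2-fold rule stayed the same with no background subtraction and with either other background filter. The mean over probes could not change them, since each gene of the set had 1 probe. The scanner software's ratios and the series table, which repeats them, each gave 1 lower by the 2-fold rule (Perp), and 7 higher and 4 lower by the 1.2-fold rule. Median centring gave 1 lower by the 2-fold rule (Perp), and by the 1.2-fold rule 3 higher (without Pkp2) and 2 lower (with Gja1). Over all 18527 genes it gave 18 lower by the 2-fold rule, and 134 higher and 135 lower by the 1.2-fold rule. It also left 8 genes of the set positive and 11 negative on both arrays, in place of 28 and 24. The fall was array-wide: over all genes these counts were 1460 and 1485, in place of 4203 and 4502. A 1.5-fold mean in place of 2-fold gave 1 lower (Perp), beside 49 of all 18527 genes. At 1.3-fold on each array 2 were higher (Cdh1 and Krt20), beside 149 of all genes. With 1 array alone, the 2-fold rule gave 0 higher and 0 to 1 lower, beside 7 to 12 and 10 to 40 of all 18527 genes. The 1.2-fold rule gave 5 to 7 higher and 2 to 4 lower, beside 846 to 973 and 438 to 881 of all genes. The median of 0.0058 lay between the single-array values of -0.0070 and 0.0098. Counts over both arrays cannot be given with 1 array. Apart from the changed thresholds and fewer arrays, the cause was not tested. Signal over background limits dim genes such as Cdh13; no other normexp offset was tried. No paired analysis was possible because each genotype was pooled into 1 sample.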

Other observations

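The array also held 13 transcripts that its descriptions name as junction or keratin products without giving a gene symbol. They were not counted among the 86 genes and were looked up after the ratios were known. Of these, 10 passed the background filter and 0 met the 1.2-fold rule. The claudin 3 transcript (AK002672) had log2 ratios of 0.10 and 0.11 (mean 0.10 ± 0.01), with levels of 7.94 and 8.01 in the null pool and 7.84 and 7.90 in the het pool. The P-cadherin transcript (X06340) had 0.05 ± 0.03, and the claudin 12 transcript (AK039672) had 0.05 ± 0.12. The transcript described as a homolog of a desmoplakin fragment (AK077574) had 0.01 and -0.31 (mean -0.15 ± 0.23), which leaves its direction unsettled, and a further desmoplakin transcript (AK009006) did not pass the filter. The desmoglein 2 transcript (AJ000328) had -0.02 ± 0.05.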
